A study of Mus musculus with 127 samples.

Results

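The mitosis genes described here are a list of 40 genes whose products drive a cell through division, and all 40 were found by name among the 23946 genes of the deposited expression table. They were followed cell by cell in 127 single cells of mouse bone marrow, sorted from a population that the labels call GMP-P. The mice were wild-type C57BL/6, and before sorting, beads for CD117 (Kit, a receptor of progenitor cells) had enriched the marrow. The labels gave 46 cells as CD11b+ Ly6g high, 41 as CD11b+ Ly6g low and 40 as CD11b+ GMP-P, here called Ly6g high, Ly6g low and CD11b+. CD11b is a myeloid integrin encoded by Itgam, and Ly6g is a surface protein of granulocytes. No animal was named, so each gate counts as 1 sample, no test between gates was made, and differences carry no replicate check. A second deposited file placed every cell in 1 of 11 named classes.

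At the entry into mitosis, cyclin B activates the kinase CDK1, chromosomes condense, and microtubules form a spindle that attaches to each chromosome at its kinetochore. The spindle checkpoint holds back the anaphase-promoting complex (APC/C) until all kinetochores are attached, and the complex then marks cyclin B for destruction. The central spindle, or midzone, and a contractile ring finally split the cell. Transcripts of most of these genes accumulate in G2 and M phase and decline in cells that leave the cycle. Granulocyte precursors make the primary granule proteins, such as Elane and Mpo, early, then the specific granule proteins, such as Ltf and Camp. Proteins such as the collagenase Mmp8 and the gelatinase Mmp9 are made later. Precursors divide up to the myelocyte stage, and the metamyelocytes, band cells and neutrophils that follow do not divide.

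Expression was deposited as log2(TPM + 1), where TPM is a transcript's share of the cell's transcripts, corrected for length and scaled to the same total in every cell. TPM keeps no read depth, so the number of genes at 1 TPM or more, the limit for detection used throughout, stood in for it. Its median was 1695 genes per cell in Ly6g high, 2521 in Ly6g low and 2464.5 in CD11b+ cells, and across the 127 cells the number of members detected increased with it (Pearson's r = 0.60, Spearman's rho = 0.67, a description of cells from shared samples). Ly6g was detected in 78.3%, 68.3% and 20% of the cells of these gates, and Kit in 13%, 22% and 47.5%. Itgam was under 1 TPM in all 7 cells of the class HSCP-2, although the gates are labelled CD11b+, and was detected in 71 of 72 cells of Myelo-2, the largest class. The 5 progenitor markers summed to medians of 0.12, 8.67 and 63.3 TPM in Ly6g high, Ly6g low and CD11b+ cells, and their part in the gate differences below was not tested. Markers of T and NK cells, B cells, erythroid cells, megakaryocytes, mast cells and eosinophils had a summed median of 0 TPM in every gate. Single cells stood apart, namely the Ly6g low cell of class MDP, with 220968 TPM of mast cell and basophil genes, most of it Prss34, and the CD11b+ cell of class Eryth, with 13074 TPM of erythroid genes, most of it Car1. No label names a capture plate. The cell numbers of Ly6g low (1 to 43) and Ly6g high (44 to 96) do not overlap, while those of the CD11b+ gate run from 1 to 48 and its names carry a prefix of their own. The codes that end the names look like plate positions, and 18 or 19 of them recur between the gates of every pair. How the gates were spread over captures is not given in the sources used here, so gate and capture cannot be told apart.

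Most cells either held many mitosis transcripts or almost none. Per cell, the lowest, median and highest number of the 40 members detected was 0, 16.5 and 36 in Ly6g high, 0, 27 and 39 in Ly6g low and 1, 18 and 37 in CD11b+ cells. The ranges overlapped almost completely, and the gates differed mainly in how many cells lay at the bottom. In Ly6g high, 20 cells had under 5 members, none had 5 to 9, and the other 26 had 10 or more. In Ly6g low, 8 cells had under 5, none had 5 to 9, and 33 had 10 or more. The CD11b+ gate lacked this gap, with 5 cells under 5, 10 cells at 5 to 9 and 25 cells at 10 or more. The share with 10 or more members was 56.5% in Ly6g high, with an exact 95% binomial interval of 41.1 to 71.1%. It was 80.5% in Ly6g low, with an interval of 65.1 to 91.2%, and 62.5% in the CD11b+ gate, with 45.8 to 77.3%. These intervals cover counting error of cells only, and those of Ly6g high and Ly6g low overlap. The limit of 10 cuts a range and defines no cell type, and 8 of the 127 cells lay at 8 to 12 members.

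Cells with few members were spread unevenly over the classes, as the plot of members by class shows. Of the 33 cells with under 5 members, 16 were Myelo-4, 10 Myelo-2, 4 Myelo-3 and 3 HSCP-2 cells. In Ly6g low, 6 of the 8 such cells were Myelo-2 cells. All 16 Myelo-4 cells had 3 members or fewer, with a median of 0, and 13 of them were Ly6g high cells. Myelo-2, with 72 cells, had a median of 26 members (range 0 to 39), and 59 of its cells, or 81.9% (71.1 to 90%), had 10 or more. All 10 cells of Gran-1 and Gran-2 had between 11 and 37 members, all 5 Myelo-1 cells between 18 and 38, and all 5 Mono cells between 22 and 36. These classes and Myelo-4 did not overlap. At the other end from Myelo-4, the 7 HSCP-2 cells had a median of 5 members (range 1 to 13), and 1 of them reached 10. The 9 Myelo-3 cells spread from 2 to 31 members with a median of 5, and 3 of them reached 10. The single cells called MDP, Eryth and Multi-Lin had 28, 9 and 5 members. How the classes were assigned is not given in the sources used here and they may rest on these same values, so the counts describe the classes and test nothing.

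**Figure D1:**
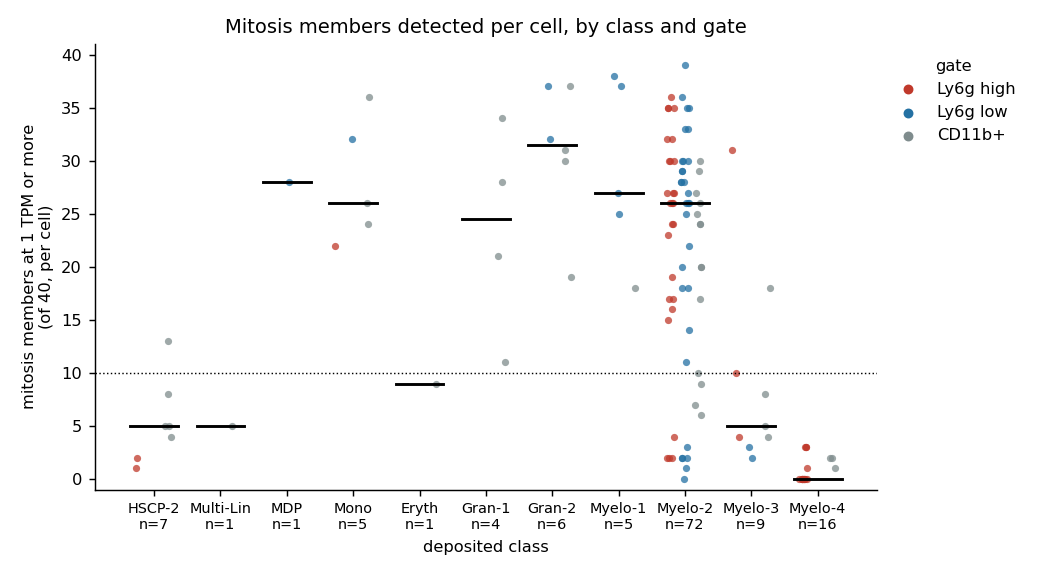
Number of the 40 mitosis members at 1 TPM or more in each cell (vertical axis), by deposited class (horizontal axis, with the number of cells), with a point per cell coloured by gate, a bar at the class median and a dotted line at 10 members. The Myelo-4 cells all sit at 3 or below, while all Gran-1, Gran-2, Mono and Myelo-1 cells sit at 11 or above.

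Within a single class the gates lay closer together. Of the 27 Myelo-2 cells in Ly6g high, 23 had 10 or more members (85.2%, interval 66.3 to 95.8%). In Ly6g low 25 of 31 did (80.6%, interval 62.5 to 92.5%), and in the CD11b+ gate 11 of 14 (78.6%, interval 49.2 to 95.3%). The Myelo-2 medians were 26, 26 and 22 members, so the order of the gates seen over all cells was not seen within this class. No Ly6g low cell was in Myelo-4.

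Cells of like complexity were then compared, with bands of genes detected that were chosen after the data were seen. Between 1300 and 1900 genes, the 10 Ly6g high cells of Myelo-2 had 2 to 26 members with a median of 15.5, and the 7 Ly6g high cells of Myelo-4 had 0 to 3 with a median of 1. In that band, 6 of these 10 Myelo-2 cells and none of the 7 Myelo-4 cells had 10 or more. The 6 Ly6g low cells of Myelo-2 in the band lay near Myelo-4, with a median of 2 members, a range of 0 to 26 and 2 cells at 10 or more. Between 2500 and 4300 genes, 4 HSCP-2 cells had 1 to 8 members with a median of 5. In the same band 19 Myelo-2 cells had 14 to 39 members with a median of 30. Genes detected had a median of 2964 in these HSCP-2 cells and 2643 in these Myelo-2 cells. The 7 Gran cells of the band had 11 to 34 members, but with a median of 3912 genes they were not matched to HSCP-2. Each of these bands holds few cells.

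**Figure D2:**
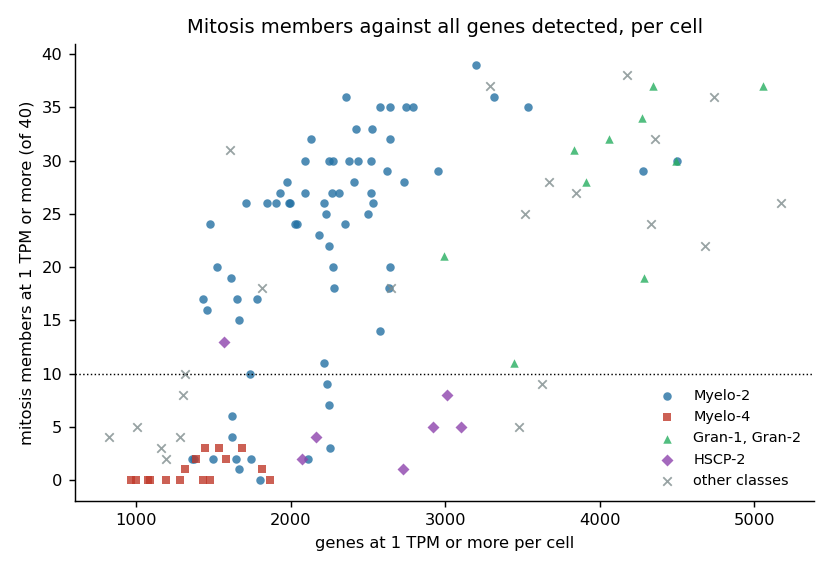
Mitosis members at 1 TPM or more (vertical axis, of 40) against all genes at 1 TPM or more (horizontal axis) for each of the 127 cells, with symbols for class and a dotted line at 10 members. Myelo-4 cells lie at 0 to 3 members at gene numbers where Myelo-2 cells reach 26, and the 4 HSCP-2 cells between 2500 and 4300 genes lie at 1 to 8 members, where the Myelo-2 cells of that band lie at 14 to 39.

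The low detection in Myelo-4 covered every role. Of the 40 members, 31 were under 1 TPM in all 16 Myelo-4 cells, which allows a share of up to 18.8% of cells for each (3 cells, counting error only). Myelo-4 cells detected a median of 1409 of the 23946 genes, and how many of all genes were undetected in all 16 was not counted. The 9 members detected at all were Mki67 and Smc4, in 4 cells each, and Ccnb2, Bub3, Ube2c, Kif23, Cks2, Incenp and Racgap1, in a single cell each. All members of the kinetochore, mitotic kinase and spindle groups were undetected. The summed level of the 40 members ranged from 0.64 to 193 TPM with a median of 3.37 in the 13 Ly6g high cells of Myelo-4. In the 27 Ly6g high cells of Myelo-2 it ranged from 9.69 to 10815 TPM with a median of 5218, and 4 of these cells had under 5 members, so the ranges overlapped at the bottom. With mean levels compared as the log2 ratio of mean TPM + 1, all 39 members measured were more than 2-fold lower in these Myelo-4 cells than in these Myelo-2 cells, with a median log2 ratio of −6.32. Of all 3105 genes measured in this pair, 45.3% were 2-fold or more lower, 13.7% were higher and the median log2 ratio was −0.75. A gene was measured where at least 25% of the cells of either group detected it. In these Myelo-4 cells 0 members met this limit, and in these Myelo-2 cells 39 did. The members thus entered only through the group where they are high, so their shared direction describes the cells and tests nothing. In every Myelo-4 cell Mmp8 was detected, at a lowest, median and highest level of 6.27, 2053 and 5702 TPM, while no Ly6g high cell of Myelo-2 reached 1 TPM of it.

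HSCP-2 cells also had few members detected. In its 7 cells 19 members were undetected, which allows up to 42.9% of cells for each. These included Cdk1, Ccna2, Ccnb2, Aurkb, Plk1, Cdc20, Ube2c, Cenpa, Nuf2 and Tpx2. HSCP-2 cells detected a median of 2728 genes, and how many of all genes were undetected in all 7 was not counted. Bub3 was detected in 4 of the 7 cells, and Smc4, Cks2 and Tacc3 in 3 each. Mmp8 was detected in 4 of the 7, at up to 15.4 TPM. Within the CD11b+ gate, 31 of 39 measured members were 2-fold or more lower in 5 HSCP-2 than in 8 Gran cells, against 48% of all 6918 genes, and 2 were higher, against 27%. The 2 higher were Mki67 and Ect2. The detection limit of 25% of cells was met by 39 members in these Gran cells and by 8 in these HSCP-2 cells. Most members thus entered through the Gran cells alone. The HSCP-2 level of Mki67 came almost wholly from a single cell at 4605 TPM, which made 99.7% of the class's sum.

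**Figure D3:**
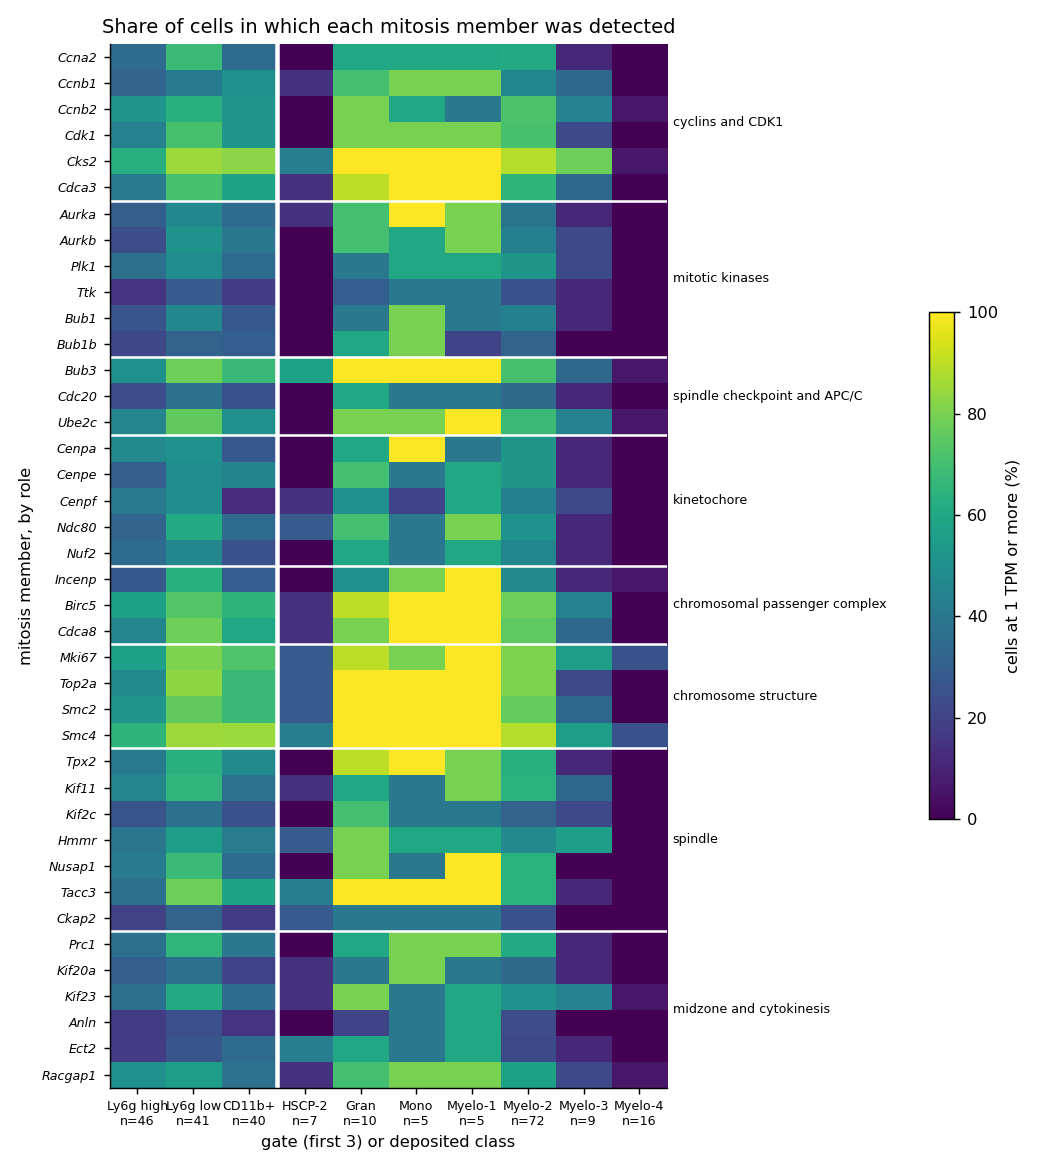
Percent of cells with each mitosis member at 1 TPM or more (colour), for the members in rows grouped by role and for the 3 gates and 7 classes in columns (Gran joins Gran-1 and Gran-2). The Myelo-4 column is at 0 in 31 of 40 rows and the HSCP-2 column in 19, while chromosome structure genes are detected in most cells of the Gran, Mono and Myelo-1 columns.

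The members are given next by role, as the number of cells that detected each in the order Ly6g high (of 46), Ly6g low (of 41) and CD11b+ (of 40). All 40 members were detected in some cells of every gate. Ly6g low had the largest share of cells for 38 of the 40, and Ly6g high the smallest for 28. The same ranking was not made over all genes. Ly6g low also had the most genes detected per cell and Ly6g high the fewest, with medians of 2521 and 1695. The part of this in the ranking was not tested. The genes seen in most cells overall were Smc4 (78% of the 127 cells), Cks2 (76.4%), Mki67 (69.3%), Top2a (65.4%) and, at 64.6% each, Birc5, Smc2 and Bub3. Anln was seen least, in 18.9%.

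Among the cyclins and CDK1 regulators, Cks2, a small subunit of CDK complexes, was the gene with the highest mean in Ly6g low and CD11b+ cells. It was detected in 29, 35 and 33 cells, and the lowest, median and highest levels were 0, 66 and 1744 TPM in the Ly6g high gate, 0, 357 and 2511 TPM in the Ly6g low gate and 0, 404 and 8753 TPM in CD11b+ cells. The ranges overlapped, and the cell at the top of the CD11b+ range, a Myelo-3 cell, took 96.5% of its summed member level from this gene. Ccnb2, a cyclin B, was detected in 24, 26 and 21 cells, and the lowest, median and highest levels were 0, 1.46 and 1259 TPM in the Ly6g high gate, 0, 30 and 787 TPM in the Ly6g low gate and 0, 3.74 and 1334 TPM in CD11b+ cells. Many cells of each gate were without it, and its mean was highest in Ly6g high, at 227, 109 and 134 TPM in the 3 gates. Ccnb1, the other cyclin B of the list, was detected in 15, 17 and 20 cells and Ccna2, the cyclin of S and G2 phase, in 16, 28 and 14 cells. Cdk1 itself was detected in 20, 29 and 21 cells, at medians of 0.295, 62.8 and 6.10 TPM. Cdca3, a factor in the destruction of the mitotic inhibitor Wee1, was detected in 19, 29 and 23 cells.

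The mitotic kinases were each detected in 7 to 21 cells of a gate. Aurka, which matures the spindle poles, was detected in 14, 19 and 14 cells, and Plk1, which acts from mitotic entry to cell division, in 17, 20 and 14 cells. Aurkb, the kinase of the chromosomal passenger complex, was detected in 11, 21 and 16 cells. For Aurkb, the lowest, median and highest levels were 0, 0 and 852 TPM in the Ly6g high gate, 0, 1.66 and 787 TPM in the Ly6g low gate and 0, 0 and 9517 TPM in CD11b+ cells. Its CD11b+ mean of 313 TPM rested on a Myelo-3 cell at 9517 TPM, which made 76% of the gate's sum. The checkpoint kinases Ttk, Bub1 and Bub1b were detected in 7, 12 and 7 cells, in 12, 19 and 11 cells and in 10, 13 and 12 cells. A gate median above 1 TPM was reached by none of these kinases except Aurkb in Ly6g low.

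In the spindle checkpoint and the APC/C machinery it restrains, Bub3, the partner of the Bub kinases that also serves outside mitosis, was the most frequent, in 23, 32 and 27 cells. Ube2c, the ubiquitin-conjugating enzyme of the APC/C, was detected in 21, 31 and 20 cells, and the lowest, median and highest levels were 0, 0.66 and 2065 TPM in the Ly6g high gate, 0, 133 and 1428 TPM in the Ly6g low gate and 0, 1.6 and 1142 TPM in CD11b+ cells. In each gate its range began at 0 and ended above 1000 TPM. Cdc20, the APC/C activator on which the checkpoint acts, was detected in 11, 15 and 10 cells.

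At the kinetochore, the centromeric histone Cenpa was detected in 22, 21 and 11 cells, the motor Cenpe in 14, 20 and 18 cells and Cenpf in 19, 20 and 5 cells. The microtubule-binding Ndc80 complex subunits Ndc80 and Nuf2 were detected in 15, 25 and 14 cells and in 16, 19 and 10 cells. Cenpf stood out by its scarcity in CD11b+ cells, where 0, 0.065 and 105 TPM were the lowest, median and highest levels and a single Gran-2 cell made 68.1% of the sum. In Ly6g high they were 0, 0.28 and 162 TPM and in Ly6g low 0, 0.9 and 147 TPM.

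In the chromosomal passenger complex, which corrects faulty attachments, Birc5 (survivin) was detected in 26, 30 and 26 cells, and the lowest, median and highest levels were 0, 28.2 and 2896 TPM in the Ly6g high gate, 0, 359 and 1975 TPM in the Ly6g low gate and 0, 90.9 and 1897 TPM in CD11b+ cells. The 3 ranges overlapped, with the highest median in Ly6g low. Cdca8 (borealin) was detected in 21, 32 and 24 cells and the scaffold Incenp in 13, 26 and 12 cells. Chromosome structure genes had the widest detection. The topoisomerase Top2a was detected in 22, 34 and 27 cells, at medians of 0.665, 170.1 and 84.7 TPM. Smc4 and Smc2, the condensin pair, were detected in 30, 35 and 34 cells and in 24, 31 and 27 cells, and the chromosome surface protein Mki67 (Ki-67) in 26, 33 and 29 cells.

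Spindle genes, too, were each detected in the largest share of cells in Ly6g low. Tpx2, an activator of Aurka, was detected in 19, 26 and 19 cells, the motor Kif11, which pushes the poles apart, in 21, 27 and 15 cells, and the microtubule depolymerase Kif2c in 12, 15 and 10 cells. The microtubule-associated Hmmr, Nusap1, Tacc3 and Ckap2 were detected in 18, 23 and 17 cells, in 19, 28 and 14 cells, in 17, 32 and 23 cells and in 9, 13 and 7 cells. Of the midzone and cytokinesis genes, the microtubule crosslinker Prc1 was detected in 17, 27 and 16 cells and the midzone motors Kif20a and Kif23 in 14, 15 and 8 cells and in 17, 25 and 14 cells. Racgap1, which forms centralspindlin with Kif23, was detected in 23, 23 and 15 cells. Ect2, the exchange factor that activates RhoA at the ring, was detected in 8, 11 and 14 cells, the largest share being in CD11b+ cells, as it also was for Ccnb1. The ring scaffold Anln was detected in 8, 10 and 6 cells.

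Between Ly6g high and Ly6g low, the members' ratios of mean TPM + 1 passed 2-fold no more often than those of all genes. Of the 39 members measured, 1 was 2-fold or more higher in Ly6g high, or 2.56%, against 7.96% of all 3983 genes measured. Lower by that size were 7, or 17.9%, against 23.7%. The median log2 ratio of mean TPM + 1 was −0.35 for the members and −0.29 for all genes. Among cells with 1500 to 3000 genes detected the members' median changed sign, to 0.17, as did that of all genes, to 0.08. The highest ratios were 1.06 for Ccnb2, 0.89 for Cenpe and 0.66 for Nuf2. The lowest were -2.19 for Ckap2, -1.65 for Aurka and -1.60 for Cdc20. On another scale, the difference of mean log2(TPM + 1), 21 of the 39 members were 2-fold or more lower in Ly6g high and none higher. The medians on it were −1.13 for the members and −0.80 for all genes, whose share past 2-fold was not counted there. The Ccnb2 ratio did not keep its sign on that scale, where it was −0.33. All 20 S phase genes measured, of a list of 26 that copy DNA or make its building blocks, had a ratio below 0. Their median was −1.71, and 17 were 2-fold or more lower. Of the 26, the median cell had 2 at 1 TPM or more in Ly6g high and 13 in Ly6g low. How many of the 20 met the limit of 25% of cells in each gate was not counted. Some may have entered through Ly6g low alone, so their shared direction describes the cells and tests nothing.

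Within Myelo-2 the direction of the members was the other way. Between Ly6g high and Ly6g low cells of this class, 10 of 40 members were 2-fold or more higher in Ly6g high, or 25%, against 13.1% of all 3911 genes, and 2 were lower, or 5%, against 19.8%. The median log2 ratio was 0.43 for the members and −0.13 for all genes. The highest ratios were 1.75 for Nuf2, 1.69 for Cenpe and 1.55 for Ccnb2, and Cenpa, another kinetochore gene, was at 1.21. The 2 lower members were the kinase Ttk at -1.17 and Ndc80 at -1.09. In the Myelo-2 cells, Ccnb2 was detected in 21 of 27 Ly6g high cells, with a lowest, median and highest level of 0, 248 and 1259 TPM. In Ly6g low it was detected in 20 of 31 cells, at 0, 30 and 787 TPM. The ranges overlapped, and in both gates some cells were at 0. Of 19 S phase genes measured in the same cells, 11 were 2-fold or more lower in Ly6g high and none higher, with a median of −1.14. The median Myelo-2 cell had 6 S phase genes at 1 TPM or more in Ly6g high and 12 in Ly6g low. Here too some may have entered through Ly6g low alone, so these counts describe the cells and test nothing.

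Between the Myelo-2 cells of the CD11b+ gate and those of Ly6g low, 5 of 38 members were 2-fold or more higher, or 13.2%, against 17% of all 4063 genes, and 11 were lower, or 28.9%, against 23.4%. Incenp, at −3.26, was the lowest of them. Within the CD11b+ gate, 12 of 39 members were 2-fold or more higher in Gran than in Myelo-2 cells, or 30.8%, against 55.4% of all 6679 genes, and 8 were lower, or 20.5%, against 11.8%. The members' median there was −0.05 and that of all genes 1.26.

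In CD11b+ cells against Ly6g low, 4 of 39 members were 2-fold or more higher, or 10.3%, against 30.3% of all 4774 genes, and 10 were lower, or 25.6%, against 7.83%. The median log2 ratio was −0.45 for the members and 0.48 for all genes, and the members' median was 0.088 among Myelo-2 cells. As the difference of mean log2(TPM + 1), none of the members were 2-fold or more higher and 21 were lower. The medians on that scale were −1 for the members and 0.07 for all genes, whose share past 2-fold was not counted there. As ratios of mean TPM + 1, the highest members were Ect2 at 1.74, Aurkb at 1.68 and Mki67 at 1.16. The lowest were Cenpf at -2.32, Incenp at -1.84, and Ckap2 and Ttk at -1.68 each. For Mki67 the ratio rested on a single HSCP-2 cell and was −0.31 without the cell of highest summed member level in each gate. On the scale of the difference of mean log2(TPM + 1), the ratios of Mki67, Aurkb and Smc4 also changed sign, to −1.01, −0.64 and −0.48. Of the 5 kinetochore genes 3 were 2-fold or more lower, and of the 4 chromosome structure genes 2 were higher, Mki67 and Smc4. A single Myelo-3 cell made 54.8% of the CD11b+ sum of Smc4. Against Ly6g high, 6 of 37 members were 2-fold or more higher in CD11b+ cells, or 16.2%, against 44.5% of all 4447 genes, and 6 were lower, or 16.2%, against 6.93%. The members' median was −0.14 and that of all genes 0.83, and the members' median was 0.13 as the difference of mean log2(TPM + 1). Among Myelo-2 cells 1 of 39 was higher and 9 were lower, with a median of −0.30 against 0.07 for all genes. Among cells with 1500 to 3000 genes detected 4 of 39 were higher and 13 lower, with a median of −0.60 against 0.27. The share of all genes past 2-fold was not counted in these subsets. Over all cells of these gates, the extreme members were Ect2 at 2.76, Aurkb at 2.01 and Cks2 at 1.74, and Cenpa at -1.98, Cenpf at -1.86 and Racgap1 at -1.72. The gate comparisons share their cells in pairs, so they are not independent of each other.

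Along the granule gene order, the median number of members was low only in the last of 4 ranges, where most Myelo-4 cells lay. The 112 cells of the Gran and Myelo classes were ranked by the mean log2(TPM + 1) of 12 late neutrophil genes minus that of 8 primary granule genes and cut into 4 ranges of 28 cells. The median number of members per cell was 28.5, 25, 18 and 2.5 from the first range to the last. Cells with 10 or more members numbered 25, 23, 20 and 9, or 89.3%, 82.1%, 71.4% and 32.1%. Genes detected had medians of 3479, 2273, 1761.5 and 1555.5 over the same ranges. Set against them, the median number of members per 1000 genes was 7.24, 10.3, 11.7 and 1.45, so that it dropped only in the last range. With specific granule genes in place of the late ones, the last range had 57.1%. As first ranked, that range held 14 of the 16 Myelo-4 cells, 13 Myelo-2 cells and 1 Myelo-3 cell. None of the Myelo-4 cells had 10 or more members. Each role group was detected least in the last range, from 38.4% of gene and cell pairs for chromosome structure to 17.9% for the mitotic kinases. Over the 112 cells the number of members and the score had a Pearson's r of −0.49 and a Spearman's rho of −0.48, as a description of cells that share samples. Within the 72 Myelo-2 cells these were only −0.23 and −0.14.

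**Figure D4:**
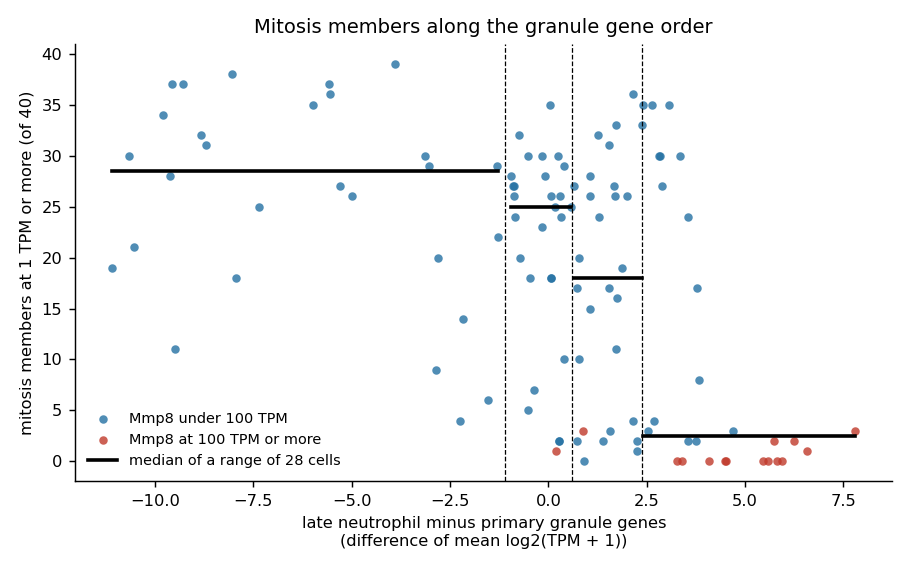
Mitosis members at 1 TPM or more (vertical axis, of 40) in the 112 Gran and Myelo cells against the late neutrophil minus primary granule score (horizontal axis, difference of mean log2(TPM + 1)), with dashed lines between 4 ranges of 28 cells, bars at their medians of 28.5, 25, 18 and 2.5, and cells with Mmp8 at 100 TPM or more in red. The red cells all lie at 3 members or below, and other cells with high scores reach 35.

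Single marker genes were examined in the same cells. Of 8 granule and maturation genes examined at 100 TPM, Mmp8 was the one above which no cell of the Gran and Myelo classes had 10 or more members. Its 15 cells were 15 of the 16 Myelo-4 cells, so the class and the marker describe the same cells. They had 0 to 3 members with a median of 0, and a count of 0 in 15 cells allows a share of up to 20% (3 cells, counting error only). Of the 97 cells below this level, 77, or 79.4% (70 to 86.9%), had 10 or more. At 10 TPM of Mmp8, 2 of 17 cells had 10 or more members, and at 1000 TPM 0 of 10. For Mmp9 at 100 TPM it was 8 of 23 cells, and at 1000 TPM 0 of 6. Among Ly6g high cells of Myelo-2, 6 had Mmp9 at 100 TPM or more, and all 6 had between 19 and 36 members. For Retnlg, another late neutrophil gene, 11 of 31 cells had 10 or more members at 100 TPM and 1 of 14 at 1000 TPM. Specific granule genes did not separate the cells, with 65 of 98 cells for Ltf and 70 of 104 for Camp, and neither did Ly6g, with 26 of 44 cells above and 51 of 68 below. Above 100 TPM of the primary granule genes, 20 of 22 cells for Elane and 18 of 18 for Mpo had 10 or more. Cells with 10 or more members thus included cells with Ltf, Camp, Ly6g or Mmp9 at 100 TPM or more, and none with Mmp8 at that level.

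S phase genes and members were then compared along this order and within Myelo-2. Over the cells of all gates, the median number of S phase genes per cell was 18, 12, 4.5 and 1.5 in the 4 ranges, beside 28.5, 25, 18 and 2.5 members. Of the Myelo-2 cells with 10 or more members, 9 of 23 in Ly6g high (39.1%, 19.7 to 61.5%) had 4 or fewer of the 26 S phase genes. In Ly6g low this was 2 of 25 (8%, 0.984 to 26%) and in CD11b+ 2 of 11 (18.2%, 2.28 to 51.8%). The intervals of the Ly6g gates overlap. None of the 8 CD11b+ Gran cells and none of the 5 Myelo-1 cells was of this kind, all having 13 or more S phase genes. The limit of 4 was set after the data were seen, and with limits from 2 to 6 the share ran from 30.4 to 43.5% in Ly6g high and from 0 to 12% in Ly6g low. Genes detected had a median of 2092 in the Ly6g high and 2521 in the Ly6g low cells counted here, and the part of this difference in the result was not tested. Among cells with 1500 to 3000 genes the shares were 33.3% of 21 and 10% of 20.

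**Figure D5:**
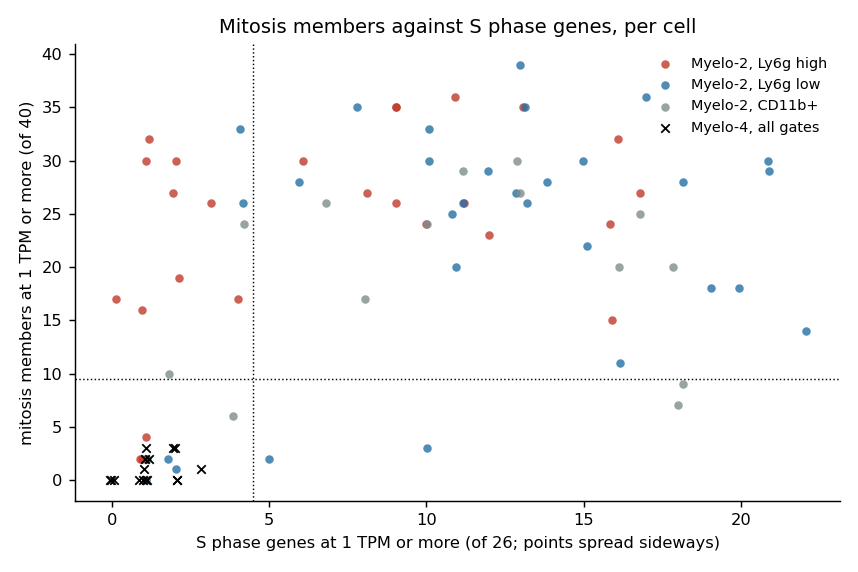
Mitosis members at 1 TPM or more (vertical axis, of 40) against S phase genes at 1 TPM or more (horizontal axis, of 26) in Myelo-2 cells coloured by gate and in Myelo-4 cells (crosses), with dotted lines at the limits of 10 members and 4 S phase genes. The upper left field holds 9 Ly6g high, 2 Ly6g low and 2 CD11b+ cells of Myelo-2, and all Myelo-4 cells lie at the lower left.

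Members varied together from cell to cell. The correlation of a member's log2(TPM + 1) with the mean of the other members across the 127 cells ran from 0.24 for Anln to 0.82 for Top2a, with a median of 0.63, as a description of cells that share samples and differ in genes detected. Ckap2 at 0.36 and Ect2 at 0.31 were, with Anln, at the low end, and all 3 were among the members detected in the fewest cells. The genes outside the list most like the mean of the members, out of 6562 genes detected in at least 10% of cells, were Kpna2 (r = 0.79), an importin, Tuba1b (0.75), 2810417H13Rik (0.74), Stmn1 (0.74), a microtubule destabilizer, and the spindle motor Kif15 (0.73). Tubb5 and Tuba1c, which encode tubulins, the histone genes Hist1h2ao and Hist1h4d, and the ribonucleotide reductase subunit Rrm2 followed at 0.70 to 0.71. The median over these 6562 genes was 0.16. The lowest was Mmp8 at −0.51, which became −0.34 with genes detected taken into account and −0.11 within the 72 Myelo-2 cells. Kpna2 was at 0.69 and 0.70 in the same order. Of 50 other G2/M genes the number detected per cell followed that of the members with r = 0.92.

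Because the members moved together, their promoters were searched for a pair of short motifs that textbooks tie to G2/M genes. One is the cell cycle genes homology region (CHR), taken as TTTGAA or TTCGAA, and the other the CCAAT box bound by NF-Y, each on both strands. A promoter meant 300 bases, from 250 before to 50 after the start, from RefSeq on GRCm38.p6, which is not the build of the expression data and was matched by symbol only. It was present for 34 of the 40 members. A CHR was found in 27 of the 34, or 79.4%, against 21.7% of the 27025 genes of the table, and within 50 bases on either side of the start in 70.6% against 6.12%. A CCAAT box was found in 79.4% against 41.1%, and both in 70.6% against 8.61%. Motifs of both kinds overlapped in 1 promoter, that of Cdca8. Of 21 S phase genes, 19% had a CHR and 66.7% a CCAAT box. The 7 members without a CHR in this window were Birc5, Ccnb1, Cenpe, Cks2, Nuf2, Nusap1 and Tacc3. The 150 bases before the start are printed for the 6 most often detected members with an entry, and for Cdk1, Cdc20 and Ube2c, which were added after the data were seen because they mark entry into and exit from mitosis. Capitals mark CHR and CCAAT matches on either strand, and the sequences run 5′ to 3′ along the gene's strand.
Cks2, chr13:51645082-51645231, plus strand: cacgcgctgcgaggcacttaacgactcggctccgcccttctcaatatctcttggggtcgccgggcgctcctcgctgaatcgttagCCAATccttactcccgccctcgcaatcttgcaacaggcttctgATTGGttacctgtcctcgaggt
Mki67, chr7:135716380-135716529, minus strand: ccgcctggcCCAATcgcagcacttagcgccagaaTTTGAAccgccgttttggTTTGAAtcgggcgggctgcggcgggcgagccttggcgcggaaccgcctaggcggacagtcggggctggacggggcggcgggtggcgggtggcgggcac
Top2a, chr11:99024190-99024339, minus strand: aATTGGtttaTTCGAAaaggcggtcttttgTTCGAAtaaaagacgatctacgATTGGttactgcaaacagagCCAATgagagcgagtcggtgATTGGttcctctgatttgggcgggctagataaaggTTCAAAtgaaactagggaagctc
Birc5, chr11:117849087-117849236, plus strand: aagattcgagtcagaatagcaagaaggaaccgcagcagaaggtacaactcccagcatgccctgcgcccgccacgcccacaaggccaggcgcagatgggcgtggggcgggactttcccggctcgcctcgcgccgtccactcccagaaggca
Bub3, chr7:131560220-131560369, plus strand: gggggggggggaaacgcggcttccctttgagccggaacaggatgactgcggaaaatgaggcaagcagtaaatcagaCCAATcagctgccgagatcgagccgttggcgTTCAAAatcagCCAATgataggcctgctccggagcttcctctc
Smc2, chr4:52439071-52439220, plus strand: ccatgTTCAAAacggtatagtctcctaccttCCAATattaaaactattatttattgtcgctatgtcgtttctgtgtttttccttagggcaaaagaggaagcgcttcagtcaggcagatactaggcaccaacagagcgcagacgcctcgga
Cdk1, chr10:69352913-69353062, minus strand: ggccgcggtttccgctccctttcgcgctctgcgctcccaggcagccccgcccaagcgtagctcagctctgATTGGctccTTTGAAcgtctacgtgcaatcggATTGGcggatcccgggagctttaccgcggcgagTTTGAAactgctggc
Cdc20, chr4:118437344-118437493, minus strand: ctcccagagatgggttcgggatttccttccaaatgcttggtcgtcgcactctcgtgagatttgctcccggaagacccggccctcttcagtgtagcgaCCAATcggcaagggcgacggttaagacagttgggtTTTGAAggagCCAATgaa
Ube2c, chr2:164769779-164769928, plus strand: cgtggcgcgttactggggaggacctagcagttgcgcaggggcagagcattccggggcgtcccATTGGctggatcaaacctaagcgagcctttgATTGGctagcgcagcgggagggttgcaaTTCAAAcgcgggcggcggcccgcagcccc

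Cdk1, Cdc20 and Ube2c each have a CHR match close to the start, beginning 15, 18 and 29 bases before it, and Top2a and Mki67 have several. Cks2, seen in the second largest share of cells, has CCAAT boxes and no CHR in the printed bases, and Birc5 has neither. A match describes letters and shows no bound factor.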

How the data were processed

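Per the labels' protocols, the Fluidigm C1 system captured and lysed single cells, cDNA came from the SMARTer kit and libraries from Nextera XT. The authors deposited 1 table of log2(TPM + 1) values, a unit read from the values, which return to between 999633 and 1005383 TPM per cell. The tools were RSEM and Bowtie2 and the build mm9, per the submitters' processing notes, with versions and annotation not given in the sources used here. Class names came from a second deposited file, and how they were assigned is not given in the sources used here. All 127 cells were used, no column was without a sample, no 2 cells were correlated above 0.884, no doublet caller was run and cells were not clustered again.

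The log2 values were turned back to TPM. Detection meant 1 TPM, and groups were compared as the log2 ratio of mean TPM + 1, which understates differences near 1 TPM, over genes that 25% or more of the cells of either group detected. Past 2-fold meant a log2 ratio of size 1 or more. Cells are not replicates and no animal was named, so no p-value was computed. Intervals are exact (Clopper-Pearson) 95% binomial. The share that a count of 0 allows was instead taken as 3 cells over the number of cells. The exact upper limits were 20.6% for 0 of 16 Myelo-4 cells and 21.8% for 0 of 15 cells with Mmp8 at 100 TPM or more. Role lists, S phase genes and other lists were taken from general knowledge, and 4 kinase or passenger genes stand in a pair of roles each. Members and lists were chosen with earlier results of these data known. Members detected in at least 25% of the cells of a gate were named with values, with the extremes of each ratio, the 10 genes most like the members and the promoters of the 6 most often detected members. Python 3.11.15, pandas 2.3.3, numpy 2.4.6, scipy 1.17.1 and matplotlib 3.10.9 were used. The ratio step, without its detection filter, was tested on resampled Ly6g low cells with planted changes, and the counting step was not tested. Alternatives covered the detection limit, the number of members, pseudocount, filter, kind of mean, rescaling without granule genes, subsets of cells and other granule scores. Bands of matched gene number, other marker and S phase limits and all settings within a class were added after seeing the data.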

Additional observations from a re-analysis of the deposited data

How the results depend on the processing

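With each gate as 1 sample there is no test, so a value counts as moved when it left its exact binomial interval, shifted by over 1 SD of the cells or by over 1.5 times. The share of cells with 10 or more members in Ly6g high was 80.4% with detection at any value above 0, 85.2% in Myelo-2 cells only and 75.9% in cells with 1500 to 3000 genes. In CD11b+ cells it was 90% with detection above 0, 40% at 100 TPM, 87.5% with 5 or more members and 78.6% in Myelo-2 cells only. The other 23 of 30 share values did not move. With detection at 100 TPM the median number of members fell to 11 in Ly6g low, 15 in Gran, 13 in Mono, 13 in Myelo-1 and 11.5 in Myelo-2. At any value above 0 it was 12 in HSCP-2 and 9.5 in Myelo-4. Among cells with 1500 to 3000 genes it was 21 in Gran (1 cell), 18 in Myelo-1 (1 cell), 24.5 in Myelo-3 (2 cells) and 2 in Myelo-4 (5 cells). No Mono cell lay in that band.

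For Ly6g high over Ly6g low, the members' median log2 ratio was −1.13 as the difference of mean log2(TPM + 1), 0.43 in Myelo-2 cells and 0.17 in cells with 1500 to 3000 genes. The medians of all genes in these settings were −0.80, −0.13 and 0.08. The number of members past 2-fold was 4 with a pseudocount of 10 TPM, 21 as the difference of mean log2 and 13 in that band. The share of all genes past 2-fold was not counted in those settings, so the numbers describe the settings and set no member apart. For CD11b+ over Ly6g low the median was 0.088 in Myelo-2 cells, and for CD11b+ over Ly6g high 0.13 as the difference of mean log2. Within Myelo-2, Ly6g high over Ly6g low, 7 members passed 2-fold with a pseudocount of 10 TPM and 6 as the difference of mean log2, again without a count over all genes. The Myelo-4 over Myelo-2 median was −9.14 with a pseudocount of 0.1 TPM, −3.34 with 10 TPM and −3.83 as the difference of mean log2. The last range of the granule order had 57.1% with specific granule genes in place of late ones.

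Of 337 values of single members past 2-fold, 275 kept their side, 50 no longer passed and 12 changed sign. As the difference of mean log2, Ccnb2 was −0.33 in Ly6g high over Ly6g low, and in CD11b+ over Ly6g low Mki67 was −1.01, Aurkb −0.64 and Smc4 −0.48. In Myelo-2 cells Ect2 was 0.96 in Ly6g high over Ly6g low, Mki67 −0.27 in CD11b+ over Ly6g low, and in CD11b+ over Ly6g high Mki67 was −0.64 and Smc4 −0.10. Among cells with 1500 to 3000 genes Ect2 was 2.01 in Ly6g high over Ly6g low and Smc4 −0.021 in CD11b+ over Ly6g low. Mki67 in CD11b+ over Ly6g low was −0.10 in Myelo and Gran cells only and −0.31 without the top cells. The causes were not tested. No paired analysis was possible because the results come from no test, and the cell numbers shared by the labels of the gates pair nothing. Read depth per cell is unknown, so a member under 1 TPM may be present below detection.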

Other observations

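Genes around the cell cycle exit were also compared between Myelo-4 and Myelo-2 cells of the Ly6g high gate. Of 6 measured CDK inhibitors and exit genes 2 were 2-fold or more lower in Myelo-4, or 33.3%, and 1 was higher, or 16.7%. Of 3 measured G1 cyclins and kinases 2 were lower. Of all 3105 genes measured in this pair 45.3% were lower and 13.7% higher, so these counts do not set the few genes apart. Ccnd3, a G1 cyclin, was detected in 92.6% of the 27 Ly6g high cells of Myelo-2 and in 92.3% of the 13 Ly6g high cells of Myelo-4. The CDK inhibitor Cdkn1b was detected in 81.5% and 69.2% of them, and Cdkn2d, another inhibitor, in 81.5% and 61.5%. The antiproliferative genes Btg1 and Btg2 were detected in 85.2% and 84.6%, and in 59.3% and 69.2%. Cdk2, the partner of cyclins E and A, was detected in 77.8% of the Myelo-2 and 7.69% of the Myelo-4 cells. Cdkn2c was in 25.9% and 0% of them, and the pocket protein gene Rbl1 in 7.41% and 0%, where 0 of 13 allows up to 23.1%. Ccnd2 was at 60% in the 10 Gran cells and at 0% in the 72 Myelo-2 cells, while Cdk4 was in 100% and 16.7%. The groups differ in genes detected, with medians of 2030 and 1318 for the Ly6g high cells of Myelo-2 and Myelo-4, and its part in these shares was not tested.

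In the 43 cells with under 10 members the remaining transcripts were uneven. Smc4 was detected in 18 of them, Cks2 in 14, Mki67 and Bub3 in 10 each and Ccnb2 in 8. Another 12 members, Aurka, Aurkb, Ccna2, Bub1, Kif20a, Kif2c, Tpx2, Kif11, Nusap1, Nuf2, Ttk and Prc1, were under 1 TPM in all 43. The 43 cells were chosen for few members, so low detection was partly set by the choice, and no such count was made over all genes. In the other 84 cells Smc4, Cks2, Mki67, Bub3 and Ccnb2 were detected in 96.4%, 98.8%, 92.9%, 85.7% and 75%. There the 12 members ran from 31% for Ttk to 76.2% for Tpx2. In 4 CD11b+ cells a single member made most of a summed level above 5000 TPM. Cks2 made 58.8% in an HSCP-2 cell with 13 members and 96.5% in a Myelo-3 cell with 8, Aurkb 69.5% in a Myelo-3 cell with 18, and Smc4 99.9% in a Myelo-3 cell with 4.

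Among the Myelo-2 cells with 10 or more members, the 13 with 4 or fewer S phase genes and the other 46 had medians of 26 and 27 members, and 1734 and 2395 genes detected. Ccnb2 was detected in 100% of the 13 and 73.9% of the 46, with means of 526 and 161 TPM, and Hmmr in 84.6% and 50%. Ccna2 was in 46.2% and 82.6%, Top2a in 69.2% and 100%, Incenp in 23.1% and 67.4%, and Anln in 0% and 34.8%. Over all members, 25 had the higher mean in the 13 cells and 15 in the 46. Of the 13 cells, 9 were Ly6g high cells, so this split overlaps with gate. These sets of cells were made from the data, and the parts of gate and of genes detected in these differences were not tested.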
